A study of Homo sapiens with 10 samples.

Results

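The 50 genes described here carry out cell division from mitotic entry to cytokinesis. They were taken by name from a list of mitosis and spindle genes, a rule that uses no measured value. The list itself was chosen with earlier results of these data known. All 50 were found among the 59386 genes counted in each of the 10 libraries. By role they fall into 8 groups, which are cyclins and CDK1 regulators (8 genes), mitotic kinases with the chromosomal passenger complex (7), the spindle checkpoint and the targets of mitotic ubiquitination (8), kinetochore and centromere proteins (5), kinesins (6), spindle, midzone and cytokinesis proteins (7), condensin and other mitotic chromosome proteins (7), and regulators of mitotic entry and transcription (2).

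In dividing cells, CDK1 bound to B-type and A-type cyclins starts mitosis, condensin and topoisomerase compact the chromosomes, and kinesins and microtubule-associated proteins build the spindle. The spindle checkpoint holds anaphase back until every kinetochore is attached, after which the anaphase-promoting complex marks cyclin B and securin for destruction. Most of these genes are transcribed late in the cell cycle, through promoters that carry a cell cycle homology region (CHR) and CCAAT boxes and are bound by the DREAM and MuvB complexes, B-MYB and FOXM1. Their RNA is therefore widely used as a measure of proliferation in tumours, prostate cancer included.

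RNA came from VCaP cells, an established epithelial cell line from a prostate cancer, collected 72 h after transfection with the lipid reagent Lipofectamine RNAiMAX. The knockdown groups received 30 pmol of 1 of 2 siRNAs against *SMARCA4* (A or B) or 1 of 2 siRNAs against *SMARCA1* (A or C), with 2 libraries for each siRNA and 2 control libraries. *SMARCA4* encodes the BRG1 ATPase of the SWI/SNF chromatin remodelling complexes, and *SMARCA1* encodes the SNF2L ATPase of the ISWI complexes. The comparisons ask how the loss of either remodeller changes gene expression. The labels give the control cells as wild type and say nothing of the siRNA or dose they received, and name neither a batch nor a date of preparation. All groups share the cell line, and which numbered siRNA sequence of the study belongs to which letter is not stated. Nothing states that the 2 libraries of a group came from separate cultures, so the p-values measure the spread between these libraries, which may be technical.

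The targeted genes were low where the labels place them. *SMARCA4* was at 242 and 268 CPM in the controls, 25.2 and 23.2 CPM with *SMARCA4* siRNA A, 18.6 and 13.3 CPM with *SMARCA4* siRNA B, 249.7 and 229.6 CPM with *SMARCA1* siRNA A and 228 and 237 CPM with *SMARCA1* siRNA C. Its log2 fold change in *SMARCA4* knockdown was -3.70 (SE 0.13, adjusted p = 3.9e-07). *SMARCA1* was at 32.3 and 31.5 CPM in the controls, 67.5 and 83.8 CPM with *SMARCA4* siRNA A, 57.4 and 60.6 CPM with *SMARCA4* siRNA B, 3.40 and 1.75 CPM with *SMARCA1* siRNA A and 3.20 and 2.85 CPM with *SMARCA1* siRNA C, a log2 fold change of -3.51 (SE 0.18, adjusted p = 2.1e-06) in *SMARCA1* knockdown. It rose in *SMARCA4* knockdown, at 1.07 (SE 0.18, adjusted p = 0.0010). CPM, the usual unit of counts scaled for depth, gives the count of a gene relative to the TMM-scaled total of its library, and fold changes, with their standard errors (SE), are from edgeR's quasi-likelihood test with Benjamini-Hochberg adjustment over the 16899 genes that passed the expression filter, among them all 50 mitosis genes.

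Libraries held between 23898545 and 34667965 counts. The 12 prostate epithelial markers took between 1.04% and 1.30% of the counts in every library, and the leukocyte, endothelial and fibroblast markers together stayed near 0, at no more than 0.00181% for any list. Of 20 interferon-stimulated genes, 20 rose in both knockdowns, with median log2 fold changes of 7.56 and 7.84. Their share of the counts was 0.0302% and 0.0312% in the controls, 1.61% to 4.13% over the *SMARCA4* knockdown libraries and 2.22% to 4.07% over the *SMARCA1* knockdown libraries. This rise lies in the same contrast as the knockdowns, and its part in the results against the controls cannot be told apart from theirs. The replicates of *SMARCA1* siRNA A and of *SMARCA4* siRNA A stood further apart than the other pairs, with a chi-square per gene of 54.5 and 38.8 against 3.57 to 20.5. Without *SMARCA1* siRNA A replicate 2, 4 calls against the controls changed among the 50 genes. In *SMARCA1* knockdown *CKS2* went from -0.32 (adjusted p = 0.031) to -0.25 (adjusted p = 0.051), *NDC80* from -0.25 (adjusted p = 0.04998) to -0.21 (adjusted p = 0.062) and *PRC1* from -0.84 (adjusted p = 0.077) to -1.25 (adjusted p = 0.0071), and in *SMARCA4* knockdown *CDCA2* went from -0.42 (adjusted p = 0.059) to -0.38 (adjusted p = 0.0040), all log2 fold changes with edgeR's adjusted p. The libraries hold the RNA of whole cultures, so fewer dividing cells and less of these RNAs per dividing cell cannot be told apart.

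Most of the 50 genes fell in both knockdowns. In *SMARCA4* knockdown 46 of 50 were called lower at an adjusted p below 0.05, where 22.3% of all genes tested were called lower, and the median log2 fold change was -0.79 against 0.00 over all genes. None was called higher by edgeR (22.8% of all genes), at an unadjusted p below 0.05 or by DESeq2 (0 of 50 each). In *SMARCA1* knockdown 42 of 50 were called lower, against 23% of all genes, with a median of -0.68, and 1 was higher (23.8% of all genes). Without *SMARCA1* siRNA A replicate 2 the counts of lower genes were 47 and 41 and the medians -0.75 and -0.71. The called log2 fold changes below 0 ran from -1.63 to -0.31 in the first knockdown and from -1.68 to -0.25 in the second. Falls of more than 1 on the log2 scale were found for 14 genes in the first and for 7 in the second.

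Both knockdowns are set against the same 2 controls, so their results share that measurement. Side by side, 41 genes were called lower in both, against 13.7% of all genes. *CDK1*, *CDC25B*, *BUB1*, *KIF2C* and *FOXM1* were called lower in *SMARCA4* knockdown and in neither direction in *SMARCA1* knockdown, and *CDCA2* the other way round. *CKS1B* was called higher in *SMARCA1* knockdown and was not called in *SMARCA4* knockdown. *NUSAP1* and *PRC1* were called in neither. By single libraries, the 4 *SMARCA4* knockdown libraries lay below both controls for 48 genes (29% of all genes), the 4 *SMARCA1* knockdown libraries for 44 (29.1%), and all 8 for 44 (18.1%).

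The 50 genes together took 0.674% and 0.691% of the counts in the controls. With *SMARCA4* siRNA A they took 0.419% and 0.490%, with *SMARCA4* siRNA B 0.332% and 0.345%, with *SMARCA1* siRNA A 0.441% and 0.511%, and with *SMARCA1* siRNA C 0.390% in both libraries. Exact 95% binomial intervals, which cover counting error only, were narrow, such as 0.671% to 0.678% for control replicate 1. All 8 knockdown libraries were below both controls, and *SMARCA4* siRNA B was lowest. Among the knockdown libraries, the highest shares were in *SMARCA1* siRNA A replicate 2 and *SMARCA4* siRNA A replicate 2, which had the lowest shares of interferon-stimulated genes, 2.22% and 1.61%. The part of that list in the order of the libraries was not tested.

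**Figure D1:**
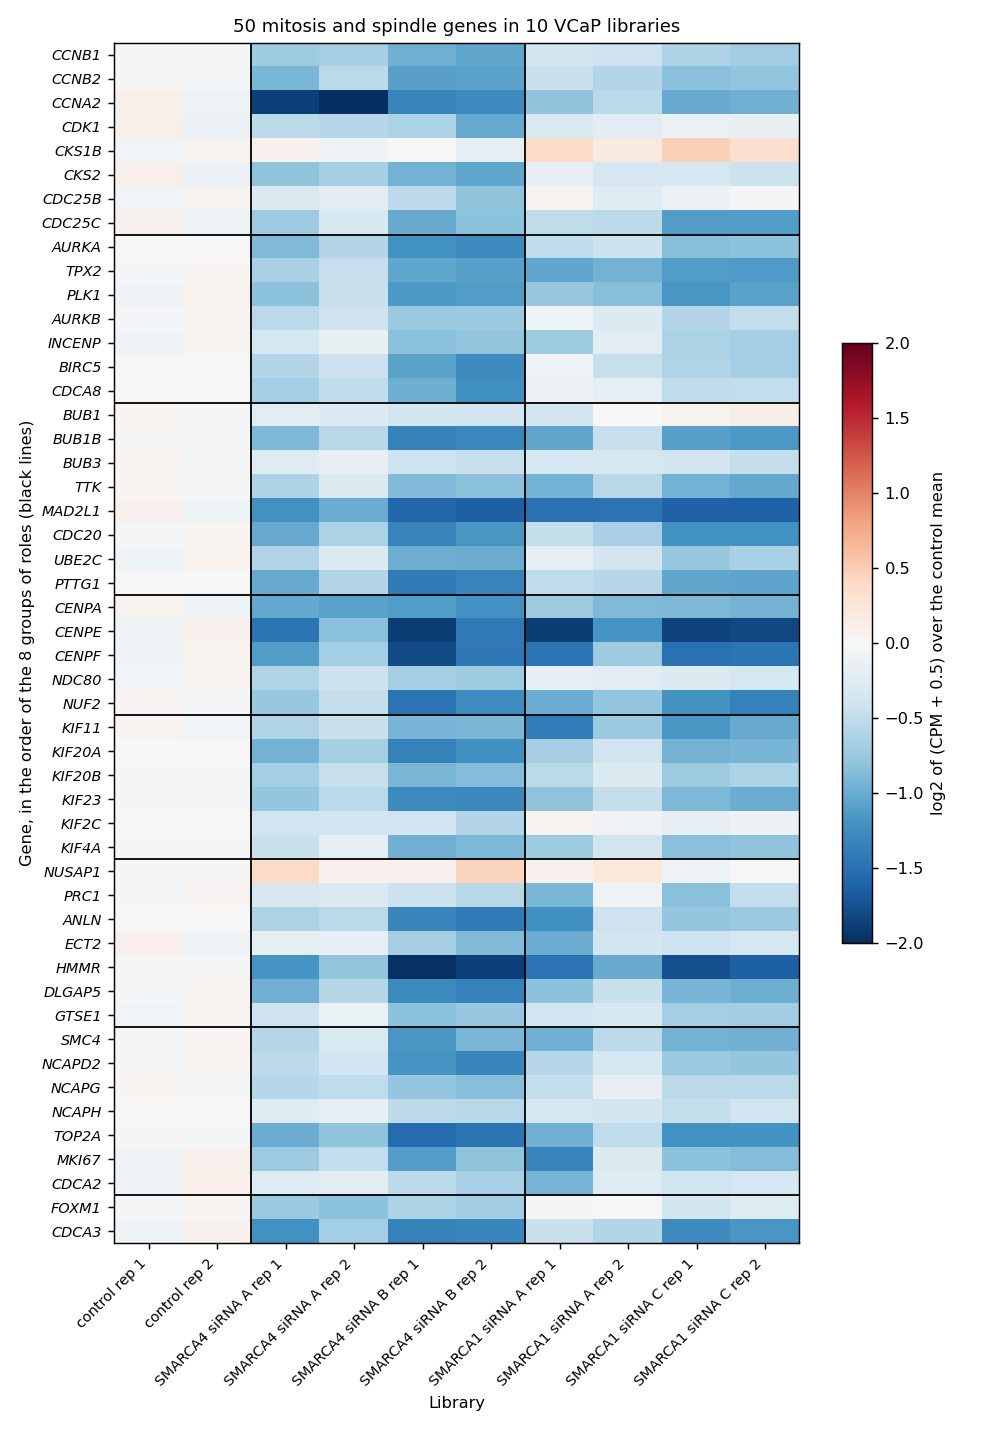
Log2 ratio of CPM + 0.5 to the control mean for each of the 50 genes (rows, in the 8 groups of roles) in each of the 10 libraries (columns). Blue marks values below the control mean, which 46 to 49 of the 50 genes have in every knockdown library, and *CKS1B* and *NUSAP1* are the rows that are mostly not blue.

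Since these genes are known for a shared promoter structure, their promoters were searched for 5 kinds of motif. RefSeq windows on GRCh38.p14, from 250 bases before to 50 bases after the annotated start, were given for 42 of the 50 genes, 53 windows in all because some genes have several starts, and these can overlap. *AURKA*, *TPX2*, *BIRC5*, *BUB3*, *TTK*, *UBE2C*, *CDCA2* and *FOXM1* had none. On both strands, the CHR element TTTGAA was in 35 windows (66.0%), against 15.2% of all 35116 windows. Its variant TTTAAA was in 30.2%, against 12.2%, and CCAAT in 73.6%, against 34.6%. A CCAAT together with TTTGAA or TTTAAA was in 62.3%, against 9.27%. The E-box CACGTG, a motif bound by MYC among others, was in 9.43%, against 7.26%, and any of the E2F sites TTTGGCGC, TTTCGCGC, TTTCCCGC and TTTGGCGG in 11.3%, against 3.35%. Matches to TTTGAA had a median position of -28 and matches to CCAAT of -87, counted from the start. A match describes the letters only and is not a binding site shown to be used.

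The 200 bases before the start are printed for 6 genes, 5′ to 3′ on the strand of the gene, from RefSeq on GRCh38.p14. Capitals mark both CHR forms and CCAAT on either strand, the latter printed as ATTGG where it lies on the reverse strand, and overlapping or adjoining matches run together. *CCNB1* and *CDK1* are shown as the kinase that starts mitosis, *CCNA2* as the gene with the largest fall in *SMARCA4* knockdown, *PLK1* and *HMMR* as genes that fell in both, and *CKS1B* as the gene called higher in *SMARCA1* knockdown. For *CDK1*, which has 2 windows, the more downstream one is given.
CCNB1 (chr5:69166950-69167149, plus strand): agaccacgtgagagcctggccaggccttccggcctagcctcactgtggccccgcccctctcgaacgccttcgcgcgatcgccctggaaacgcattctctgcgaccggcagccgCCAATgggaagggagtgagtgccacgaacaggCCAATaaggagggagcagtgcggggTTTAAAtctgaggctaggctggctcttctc
CDK1 (chr10:60778278-60778477, plus strand): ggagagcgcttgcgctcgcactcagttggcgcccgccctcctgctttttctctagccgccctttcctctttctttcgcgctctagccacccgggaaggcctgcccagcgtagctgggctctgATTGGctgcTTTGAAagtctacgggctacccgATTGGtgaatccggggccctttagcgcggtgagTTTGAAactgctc
CCNA2 (chr4:121823884-121824083, minus strand): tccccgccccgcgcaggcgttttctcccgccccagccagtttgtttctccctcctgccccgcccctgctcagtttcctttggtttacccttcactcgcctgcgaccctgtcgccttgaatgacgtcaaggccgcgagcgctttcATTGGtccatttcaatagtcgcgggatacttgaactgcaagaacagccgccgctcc
PLK1 (chr16:23678689-23678888, plus strand): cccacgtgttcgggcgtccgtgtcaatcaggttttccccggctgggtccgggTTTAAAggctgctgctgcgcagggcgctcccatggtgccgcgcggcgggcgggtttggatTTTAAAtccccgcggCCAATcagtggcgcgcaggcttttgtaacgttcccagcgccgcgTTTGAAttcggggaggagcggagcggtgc
HMMR (chr5:163460432-163460631, plus strand): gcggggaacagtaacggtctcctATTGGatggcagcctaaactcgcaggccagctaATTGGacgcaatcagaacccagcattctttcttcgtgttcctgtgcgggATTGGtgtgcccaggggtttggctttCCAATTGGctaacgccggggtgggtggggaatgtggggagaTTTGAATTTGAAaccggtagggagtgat
CKS1B (chr1:154974481-154974680, plus strand): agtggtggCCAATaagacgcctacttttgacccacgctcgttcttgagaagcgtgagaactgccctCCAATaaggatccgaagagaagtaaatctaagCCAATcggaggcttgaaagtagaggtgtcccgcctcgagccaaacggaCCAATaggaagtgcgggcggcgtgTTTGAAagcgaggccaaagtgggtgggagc

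*CCNA2* holds neither TTTGAA nor TTTAAA, and within the bases printed *CKS1B* holds a TTTGAA and 4 CCAAT matches. No other form of the CHR was searched, so a gene without these letters may still hold a CHR. Among the 42 genes with a window, the 3 without TTTGAA or TTTAAA were *AURKB*, *BUB1* and *CCNA2*. The 39 genes that hold either form had median log2 fold changes of -0.85 in *SMARCA4* and -0.76 in *SMARCA1* knockdown, and these 3 had -0.62 and -0.37. With 3 genes the second median is set by single genes.

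**Figure D2:**
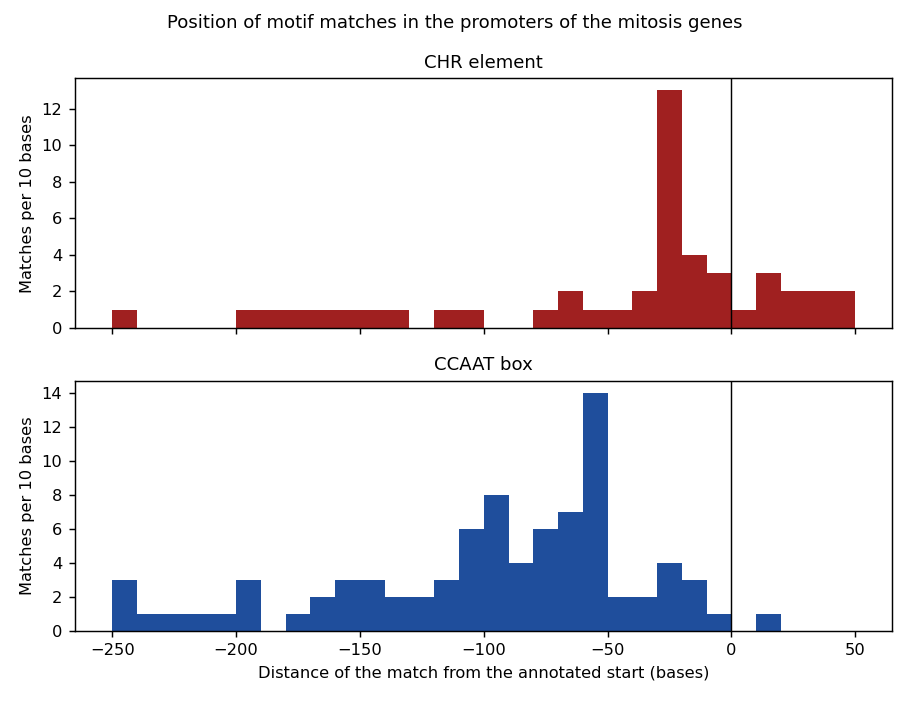
Number of matches per 10 bases to TTTGAA (top, CHR element) and CCAAT (bottom, CCAAT box) in the 53 promoter windows, by distance of the match from the annotated start in bases (0, black line). TTTGAA matches pile up just before the start, with a median of -28, and CCAAT matches lie further upstream, with a median of -87.

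Among the cyclins and CDK1 regulators, 7 of 8 genes fell in *SMARCA4* knockdown (median log2 fold change -0.79), and 5 fell and 1 rose in *SMARCA1* knockdown (median -0.42). Beside this and the following groups of roles, 22.3% and 23% of all genes were called lower and 22.8% and 23.8% higher. *CCNB1*, the main cyclin of mitotic entry, was at 223 and 216 CPM in the controls, 133 and 138 CPM with *SMARCA4* siRNA A, 113 and 107 CPM with *SMARCA4* siRNA B, 170.0 and 164 CPM with *SMARCA1* siRNA A and 143 and 136 CPM with *SMARCA1* siRNA C. No knockdown library reached a control. Its log2 fold change was -0.85 (SE 0.08, adjusted p = 4.3e-05) in *SMARCA4* and -0.53 (SE 0.08, adjusted p = 0.00077) in *SMARCA1* knockdown. *CCNA2*, which encodes the cyclin of S phase and early mitosis, was at 26.3 and 24.0 CPM with *SMARCA4* siRNA A and 38.5 and 39.8 CPM with siRNA B, 55.0 and 66.5 CPM with *SMARCA1* siRNA A and 47.8 and 49.6 CPM with siRNA C, against 104 and 89.8 CPM in the controls. The controls stood apart from all knockdown libraries, and *SMARCA4* siRNA A gave the lowest values. The fall was the largest of the 50 genes in *SMARCA4* knockdown, at -1.63 (SE 0.11, adjusted p = 5.5e-06), and in *SMARCA1* knockdown it was -0.83 (SE 0.11, adjusted p = 0.00026).

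*CDK1*, the kinase that these cyclins switch on, was at 144 and 124 CPM in the controls, 92.3 and 89.9 CPM with *SMARCA4* siRNA A, 86.1 and 66.3 CPM with *SMARCA4* siRNA B, 109 and 116 CPM with *SMARCA1* siRNA A and 123 and 120.5 CPM with *SMARCA1* siRNA C. Libraries of the *SMARCA4* siRNAs lay well below the controls, while the highest of the *SMARCA1* libraries came close to the lower control. Only the change in *SMARCA4* knockdown passed the test, at -0.69 (SE 0.12, adjusted p = 0.00097), with -0.20 (SE 0.12, adjusted p = 0.19) in *SMARCA1* knockdown. *CDC25C*, a phosphatase that activates CDK1, was at 22.1 and 29.5 CPM with *SMARCA4* siRNA A and 18.1 and 20.6 CPM with siRNA B, 25.9 and 25.5 CPM with *SMARCA1* siRNA A and 16.8 and 16.7 CPM with siRNA C, against 39.2 and 34.7 CPM in the controls. It fell in both, at -0.72 (SE 0.13, adjusted p = 0.0012) and -0.83 (SE 0.13, adjusted p = 0.00061) on the log2 scale. For its relative *CDC25B* the fold changes were -0.46 (SE 0.12, adjusted p = 0.0095) and -0.08 (SE 0.12, adjusted p = 0.58).

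The small CDK-binding proteins CKS1 and CKS2 guide CDK1 to its substrates. *CKS2* was at 50.8 and 43.5 CPM in the controls, 26.8 and 29.7 CPM with *SMARCA4* siRNA A, 24.2 and 22.6 CPM with *SMARCA4* siRNA B, 41.8 and 37.1 CPM with *SMARCA1* siRNA A and 37.1 and 35.0 CPM with *SMARCA1* siRNA C. All knockdown libraries were below both controls, and the *SMARCA4* libraries were below the *SMARCA1* libraries. *CKS2* fell, at -0.87 (SE 0.11, adjusted p = 0.00015) in *SMARCA4* and at -0.32 (SE 0.11, adjusted p = 0.031) in *SMARCA1* knockdown, where the call was lost without any single library other than *SMARCA1* siRNA A replicate 1 (adjusted p from 0.0504 to 0.363). *CKS1B*, which also serves the ubiquitin ligase that destroys the CDK inhibitor p27, was at 192 and 167 CPM with *SMARCA4* siRNA A and 182 and 160.3 CPM with siRNA B, 232 and 205 CPM with *SMARCA1* siRNA A and 251 and 228 CPM with siRNA C, against 174 and 186 CPM in the controls. Values with the *SMARCA4* siRNAs spanned the controls and the *SMARCA1* libraries were all above them. It rose in *SMARCA1* knockdown, at 0.35 (SE 0.11, adjusted p = 0.025), the only called rise among the 50 genes in either knockdown, and had -0.04 (SE 0.11, adjusted p = 0.78) in *SMARCA4* knockdown. The rise did not pass without control replicate 1, control replicate 2 or *SMARCA1* siRNA C replicate 1 (adjusted p = 0.14, 0.069 and 0.078).

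All 7 mitotic kinase and chromosomal passenger genes fell in both knockdowns, with medians of -0.84 and -0.55. *AURKA*, the centrosomal kinase that matures the spindle poles, was at 147 and 149 CPM in the controls, 80.6 and 98.9 CPM with *SMARCA4* siRNA A, 63.5 and 62.0 CPM with *SMARCA4* siRNA B, 104 and 110.5 CPM with *SMARCA1* siRNA A and 81.8 and 84.2 CPM with *SMARCA1* siRNA C. Every knockdown library was below the controls, and siRNA B and siRNA C lay below siRNA A of the same target. Its log2 fold changes were -0.98 (SE 0.10, adjusted p = 5.0e-05) and -0.65 (SE 0.10, adjusted p = 0.00059). *TPX2*, which activates Aurora A on the spindle, was at 188 and 215 CPM with *SMARCA4* siRNA A and 144 and 138 CPM with siRNA B, 143 and 153 CPM with *SMARCA1* siRNA A and 136 and 134 CPM with siRNA C, against 287 and 302 CPM in the controls. Here the *SMARCA1* libraries were the lower ones against *SMARCA4* siRNA A and overlapped with siRNA B. The log2 fold changes were -0.81 (SE 0.09, adjusted p = 9.2e-05) in *SMARCA4* and -1.06 (SE 0.09, adjusted p = 3.4e-05) in *SMARCA1* knockdown.

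*PLK1*, a kinase needed for entry, spindle assembly and exit, was at 102 and 113 CPM in the controls, 60.3 and 78.9 CPM with *SMARCA4* siRNA A, 48.2 and 49.5 CPM with *SMARCA4* siRNA B, 63.5 and 59.4 CPM with *SMARCA1* siRNA A and 47.6 and 51.0 CPM with *SMARCA1* siRNA C. The groups did not overlap with the controls, and the log2 fold changes were -0.88 (SE 0.11, adjusted p = 0.00022) and -0.96 (SE 0.11, adjusted p = 0.00017). *CDCA8* encodes borealin, a subunit of the chromosomal passenger complex that corrects faulty attachments, and was at 41.2 and 46.5 CPM with *SMARCA4* siRNA A and 33.4 and 28.1 CPM with siRNA B, 61.3 and 57.8 CPM with *SMARCA1* siRNA A and 46.7 and 46.9 CPM with siRNA C, against 66.8 and 65.8 CPM in the controls. Values were lowest with the *SMARCA4* siRNAs and *SMARCA1* siRNA A came closest to the controls. It fell, at -0.85 (SE 0.10, adjusted p = 0.00013) and -0.33 (SE 0.10, adjusted p = 0.022), the second lost without either control or either *SMARCA1* siRNA C library (adjusted p from 0.067 to 0.15). The remaining genes of the complex, *AURKB* (its kinase), *INCENP* (its scaffold) and *BIRC5* (survivin), had log2 fold changes of -0.62, -0.54 and -0.84 in *SMARCA4* and -0.37, -0.55 and -0.45 in *SMARCA1* knockdown.

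Of the 8 checkpoint and ubiquitination genes, 8 fell in *SMARCA4* knockdown (median -0.87) and 7 in *SMARCA1* knockdown (median -0.84). *MAD2L1* encodes MAD2, the protein that keeps CDC20 inactive until chromosomes are attached, and was at 84.0 and 74.8 CPM in the controls, 34.0 and 39.9 CPM with *SMARCA4* siRNA A, 26.3 and 25.3 CPM with *SMARCA4* siRNA B, 27.9 and 28.4 CPM with *SMARCA1* siRNA A and 25.4 and 25.4 CPM with *SMARCA1* siRNA C. All 8 knockdown libraries were below the lowest control by a wide margin, and the *SMARCA1* libraries lay close together. It fell, at -1.36 (SE 0.10, adjusted p = 9.0e-06) and -1.57 (SE 0.10, adjusted p = 5.3e-06). *CDC20*, the activator of the anaphase-promoting complex that MAD2 restrains, was at 62.2 and 81.0 CPM with *SMARCA4* siRNA A and 49.8 and 55.6 CPM with siRNA B, 90.2 and 79.9 CPM with *SMARCA1* siRNA A and 54.1 and 54.0 CPM with siRNA C, against 122 and 129 CPM in the controls. The groups did not overlap with the controls, and its log2 fold changes were -1.03 (SE 0.12, adjusted p = 1.0e-04) and -0.89 (SE 0.12, adjusted p = 0.00029).

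*PTTG1* encodes securin, the inhibitor of separase that this complex destroys at anaphase, and was at 37.7 and 37.2 CPM in the controls, 18.3 and 24.8 CPM with *SMARCA4* siRNA A, 13.7 and 14.5 CPM with *SMARCA4* siRNA B, 26.1 and 25.1 CPM with *SMARCA1* siRNA A and 17.9 and 17.9 CPM with *SMARCA1* siRNA C. Again all knockdown libraries lay below the controls, with log2 fold changes of -1.10 (SE 0.12, adjusted p = 8.4e-05) and -0.81 (SE 0.12, adjusted p = 0.00057). Near-identical copies of this gene exist in the genome, so its counts may be shared. Among the checkpoint kinases, *BUB1* had -0.31 (SE 0.11, adjusted p = 0.038) in *SMARCA4* and -0.04 (SE 0.11, adjusted p = 0.80) in *SMARCA1* knockdown, *BUB1B* (BUBR1) -1.03 and -0.93, and *TTK* (MPS1) -0.65 and -0.86. *BUB3*, their adaptor, had -0.32 and -0.39, and *UBE2C*, the ubiquitin-conjugating enzyme of the anaphase-promoting complex, -0.71 and -0.49. These 4 genes fell in both knockdowns.

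The 5 kinetochore and centromere genes fell in both knockdowns, with the lowest medians of the 8 groups in either (-1.14 and -1.10). *CENPA*, the histone H3 variant that marks the centromere, was at 30.6 and 27.4 CPM in the controls, 14.1 and 13.5 CPM with *SMARCA4* siRNA A, 13.0 and 12.2 CPM with *SMARCA4* siRNA B, 17.3 and 15.5 CPM with *SMARCA1* siRNA A and 15.3 and 14.8 CPM with *SMARCA1* siRNA C. The libraries of each siRNA were close to each other, and none came near the controls. It fell, at -1.14 (SE 0.10, adjusted p = 3.0e-05) and -0.88 (SE 0.10, adjusted p = 0.00017). *NUF2*, a subunit of the NDC80 complex that grips microtubules, was at 21.2 and 26.1 CPM with *SMARCA4* siRNA A and 12.8 and 15.1 CPM with siRNA B, 18.1 and 21.2 CPM with *SMARCA1* siRNA A and 15.6 and 14.0 CPM with siRNA C, against 37.5 and 35.4 CPM in the controls. It was below both controls in every knockdown library, with log2 fold changes of -1.003 (SE 0.13, adjusted p = 0.00018) and -1.10 (SE 0.13, adjusted p = 0.00014).

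Its partner *NDC80* fell, at -0.61 (SE 0.09, adjusted p = 0.00062) in *SMARCA4* knockdown, and in *SMARCA1* knockdown had -0.25 at an adjusted p of 0.04998, at the very edge of the threshold. *CENPE*, a kinesin that carries chromosomes to the spindle equator, is named for its size after its values were seen. It had the largest fall of the 50 genes in *SMARCA1* knockdown, -1.68 (SE 0.21, adjusted p = 0.00025), and -1.39 (SE 0.21, adjusted p = 0.00061) in *SMARCA4* knockdown. *CENPF*, a large kinetochore protein, had -1.24 and -1.26. Summed over the 5 genes, CPM was between 33.6% and 61.8% of the control mean in the *SMARCA4* libraries and between 39.9% and 58.8% in the *SMARCA1* libraries.

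Of the 6 kinesins, 6 fell in *SMARCA4* knockdown (median -0.73) and 5 in *SMARCA1* knockdown (median -0.70). *KIF11* encodes Eg5, the motor that pushes the spindle poles apart, and was at 143 and 133 CPM in the controls, 91.0 and 101 CPM with *SMARCA4* siRNA A, 71.8 and 72.9 CPM with *SMARCA4* siRNA B, 52.1 and 82.1 CPM with *SMARCA1* siRNA A and 61.6 and 68.1 CPM with *SMARCA1* siRNA C. Values were lower with the *SMARCA1* siRNAs than with *SMARCA4* siRNA A, and 1 *SMARCA1* siRNA A library stood above its partner. The log2 fold changes were -0.73 (SE 0.15, adjusted p = 0.0033) and -1.07 (SE 0.15, adjusted p = 0.00043). *KIF20A*, a motor of the central spindle, was at 129.7 and 158 CPM with *SMARCA4* siRNA A and 97.2 and 107 CPM with siRNA B, 158 and 192 CPM with *SMARCA1* siRNA A and 129 and 131 CPM with siRNA C, against 249 and 251 CPM in the controls. The controls agreed closely and exceeded all knockdown libraries, with log2 fold changes of -1.04 (SE 0.11, adjusted p = 7.5e-05) and -0.73 (SE 0.11, adjusted p = 0.00068).

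*KIF23* encodes a subunit of centralspindlin, which places the cleavage furrow, and was at 105 and 101 CPM in the controls, 60.0 and 70.5 CPM with *SMARCA4* siRNA A, 42.2 and 41.7 CPM with *SMARCA4* siRNA B, 58.3 and 73.9 CPM with *SMARCA1* siRNA A and 54.9 and 51.2 CPM with *SMARCA1* siRNA C. No knockdown library overlapped with the controls. It fell, at -0.97 (SE 0.11, adjusted p = 0.00012) and -0.80 (SE 0.11, adjusted p = 0.00044). *KIF20B*, a further cytokinesis motor, had -0.74 and -0.54, and the chromosome motor *KIF4A* -0.63 and -0.68, all called. *KIF2C* encodes MCAK, which takes microtubules apart at the centromere, and had -0.44 (SE 0.09, adjusted p = 0.0032) in *SMARCA4* but -0.08 (SE 0.09, adjusted p = 0.53) in *SMARCA1* knockdown.

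Of the 7 spindle, midzone and cytokinesis genes, 5 fell in each knockdown, and they were the same 5. *HMMR*, a hyaluronan receptor that also organises spindle microtubules, was at 57.9 and 56.3 CPM in the controls, 24.9 and 32.9 CPM with *SMARCA4* siRNA A, 14.1 and 15.2 CPM with *SMARCA4* siRNA B, 20.3 and 28.2 CPM with *SMARCA1* siRNA A and 16.5 and 18.2 CPM with *SMARCA1* siRNA C. All knockdown libraries were far below the controls, lowest with *SMARCA4* siRNA B. Its log2 fold changes were -1.47 (SE 0.15, adjusted p = 4.7e-05) and -1.48 (SE 0.15, adjusted p = 7.0e-05). *DLGAP5* encodes HURP, which stabilises the fibres that pull on kinetochores, and was at 50.4 and 66.2 CPM with *SMARCA4* siRNA A and 40.5 and 38.4 CPM with siRNA B, 55.5 and 72.6 CPM with *SMARCA1* siRNA A and 51.6 and 49.7 CPM with siRNA C, against 95.5 and 102 CPM in the controls. It was below both controls throughout, with log2 fold changes of -1.04 (SE 0.13, adjusted p = 0.00020) and -0.79 (SE 0.13, adjusted p = 0.0010). The cytokinesis genes *ANLN* (anillin) and *ECT2* (the exchange factor that activates RhoA) and the microtubule-associated *GTSE1* had -0.98, -0.47 and -0.53 in *SMARCA4* and -0.76, -0.52 and -0.53 in *SMARCA1* knockdown.

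The remaining pair, *NUSAP1* and *PRC1*, both microtubule-bundling proteins, could hardly be measured. *NUSAP1* had between 4 and 12 counts in a library and *PRC1* between 12 and 35, the lowest levels of the 50 genes in the controls at 0.0489 and 0.228 RPKM (CPM per kilobase of exon), where the median of the 50 was 22.5 RPKM and the highest, for *TOP2A*, 110 RPKM. In the annotation used here, 81.4% of the exonic bases of *NUSAP1* are shared on the same strand with the gene RP11-16O9.3 and 57.6% of those of *PRC1* with AC068831.18. Their log2 fold changes in *SMARCA4* knockdown were 0.78 (SE 0.51, adjusted p = 0.24) and -0.59 (SE 0.35, adjusted p = 0.20). The part of this overlap in their low counts was not tested. *BUB1B* shares 10.2% and *CENPA* 7.08% of their bases in this way, and the other 46 genes share none.

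Of the 7 condensin and chromosome genes, 6 fell in *SMARCA4* knockdown (median -0.73) and 7 in *SMARCA1* knockdown (median -0.61). *TOP2A*, the topoisomerase that untangles sister chromatids and a drug target in cancer, was at 709.9 and 687 CPM in the controls, 351 and 400.3 CPM with *SMARCA4* siRNA A, 240.1 and 253 CPM with *SMARCA4* siRNA B, 357 and 490.5 CPM with *SMARCA1* siRNA A and 302 and 306 CPM with *SMARCA1* siRNA C. The knockdown libraries were all below the controls, and siRNA A of *SMARCA1* spread most. It fell, at -1.20 (SE 0.12, adjusted p = 5.6e-05) and -0.96 (SE 0.12, adjusted p = 0.00025). *NCAPD2*, a subunit of condensin I, was at 181 and 199.6 CPM with *SMARCA4* siRNA A and 115 and 105 CPM with siRNA B, 175 and 205 CPM with *SMARCA1* siRNA A and 155 and 151 CPM with siRNA C, against 254 and 266 CPM in the controls. With *SMARCA4* siRNA B it was well below all other libraries, and it fell in both knockdowns, at -0.85 (SE 0.10, adjusted p = 0.00011) and -0.61 (SE 0.10, adjusted p = 0.00083).

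*MKI67* encodes Ki-67, which coats mitotic chromosomes and is the usual stain for dividing cells, and was at 396 and 448 CPM in the controls, 255 and 299 CPM with *SMARCA4* siRNA A, 196 and 241 CPM with *SMARCA4* siRNA B, 171 and 345 CPM with *SMARCA1* siRNA A and 239.6 and 231 CPM with *SMARCA1* siRNA C. All knockdown libraries were below both controls, but the *SMARCA1* siRNA A replicates held the lowest and the highest of the 8 values. Its log2 fold changes were -0.78 (SE 0.22, adjusted p = 0.015) and -0.78 (SE 0.22, adjusted p = 0.015). Both calls were lost without control replicate 1, at log2 fold changes of -0.83 and -0.84 (adjusted p = 0.068 and 0.064), and without control replicate 2, at -0.66 and -0.67 (adjusted p = 0.13 and 0.12). The call in *SMARCA4* knockdown was also lost without *SMARCA4* siRNA A replicate 1, at -0.68 (adjusted p = 0.052), and without siRNA B replicate 1, at -0.66 (adjusted p = 0.054). The condensin subunits *SMC4*, *NCAPG* and *NCAPH* had -0.73, -0.68 and -0.37 in *SMARCA4* and -0.84, -0.43 and -0.40 in *SMARCA1* knockdown. *CDCA2*, which brings a phosphatase to chromosomes at mitotic exit, had -0.42 (SE 0.16, adjusted p = 0.059) and -0.48 (SE 0.16, adjusted p = 0.034).

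Of the 2 regulators, *FOXM1* encodes the transcription factor that drives late cell cycle genes and was at 297 and 312 CPM in the controls, 182 and 171 CPM with *SMARCA4* siRNA A, 196 and 189 CPM with *SMARCA4* siRNA B, 300.3 and 303 CPM with *SMARCA1* siRNA A and 237 and 255 CPM with *SMARCA1* siRNA C. With *SMARCA1* siRNA A it was level with the controls, with siRNA C it was below them, and with either *SMARCA4* siRNA it was lower than in any other library. It fell in *SMARCA4* knockdown, at -0.72 (SE 0.08, adjusted p = 0.00012) and had -0.16 (SE 0.09, adjusted p = 0.15) in *SMARCA1* knockdown. *CDCA3*, an adaptor that brings the entry inhibitor WEE1 to its ubiquitin ligase, was at 19.8 and 28.7 CPM with *SMARCA4* siRNA A and 18.0 and 18.5 CPM with siRNA B, 34.2 and 31.0 CPM with *SMARCA1* siRNA A and 18.9 and 20.5 CPM with siRNA C, against 43.7 and 49.4 CPM in the controls. Its libraries were all below the controls, with log2 fold changes of -1.15 (SE 0.14, adjusted p = 0.00015) and -0.88 (SE 0.14, adjusted p = 0.00079).

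**Figure D3:**
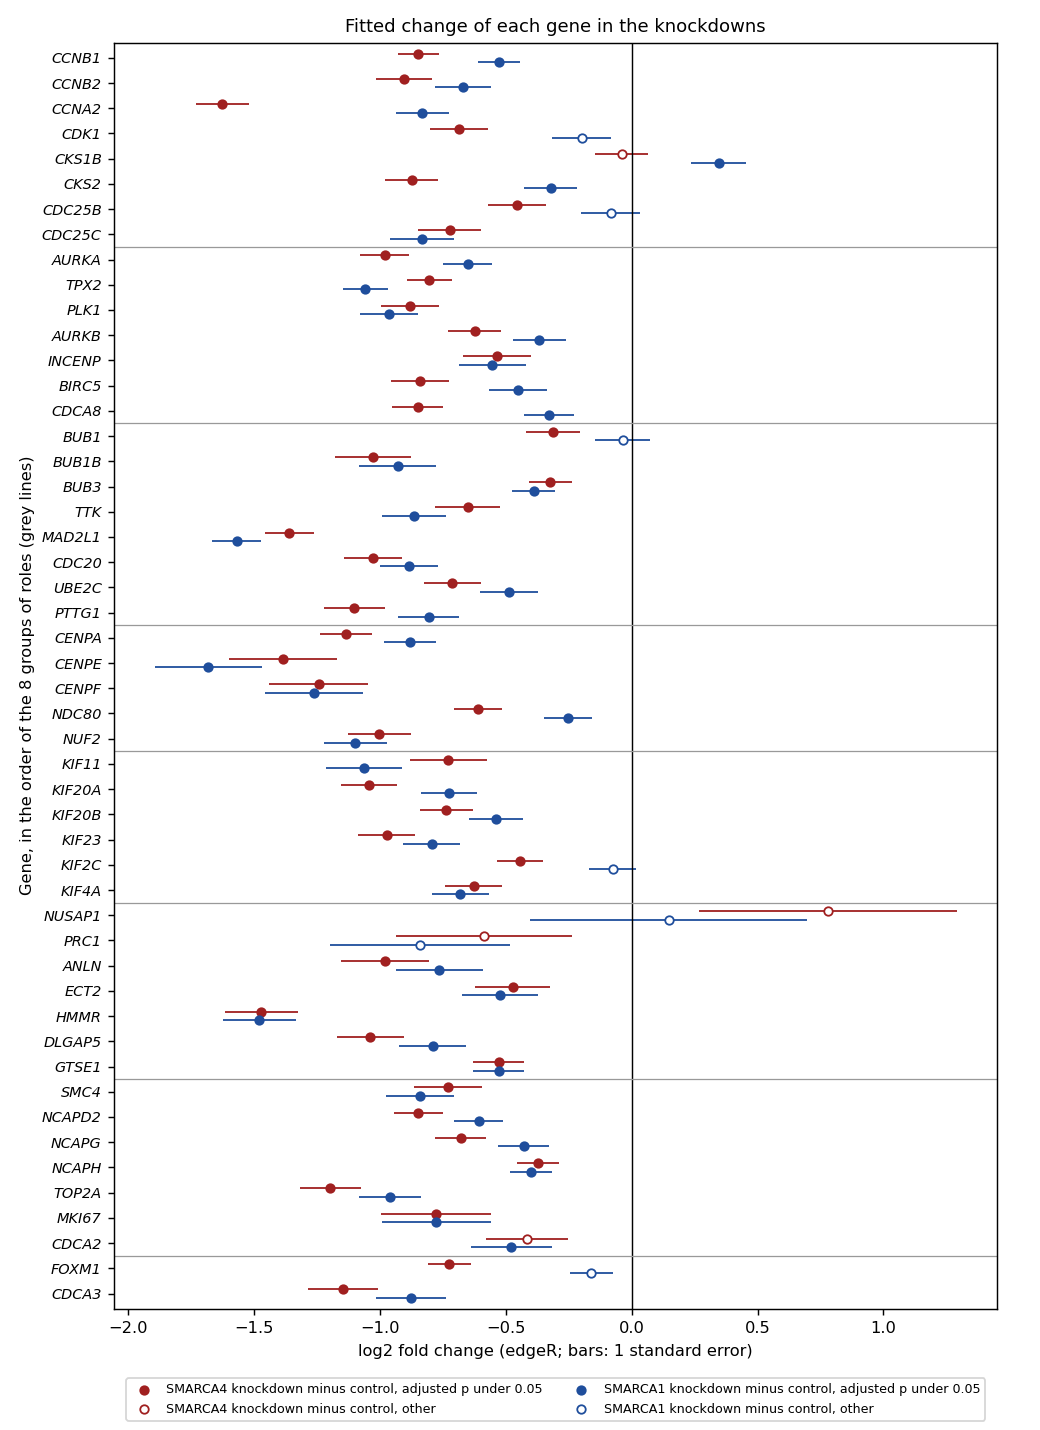
Log2 fold change (x axis, bars 1 standard error, edgeR) of each of the 50 genes (y axis, in the 8 groups of roles) in *SMARCA4* knockdown (red) and *SMARCA1* knockdown (blue) against the same 2 controls, filled where the adjusted p is below 0.05. Filled points to the left of 0 number 46 in red and 42 in blue, and the 1 filled point to the right is *CKS1B* in *SMARCA1* knockdown.

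**Figure D4:**
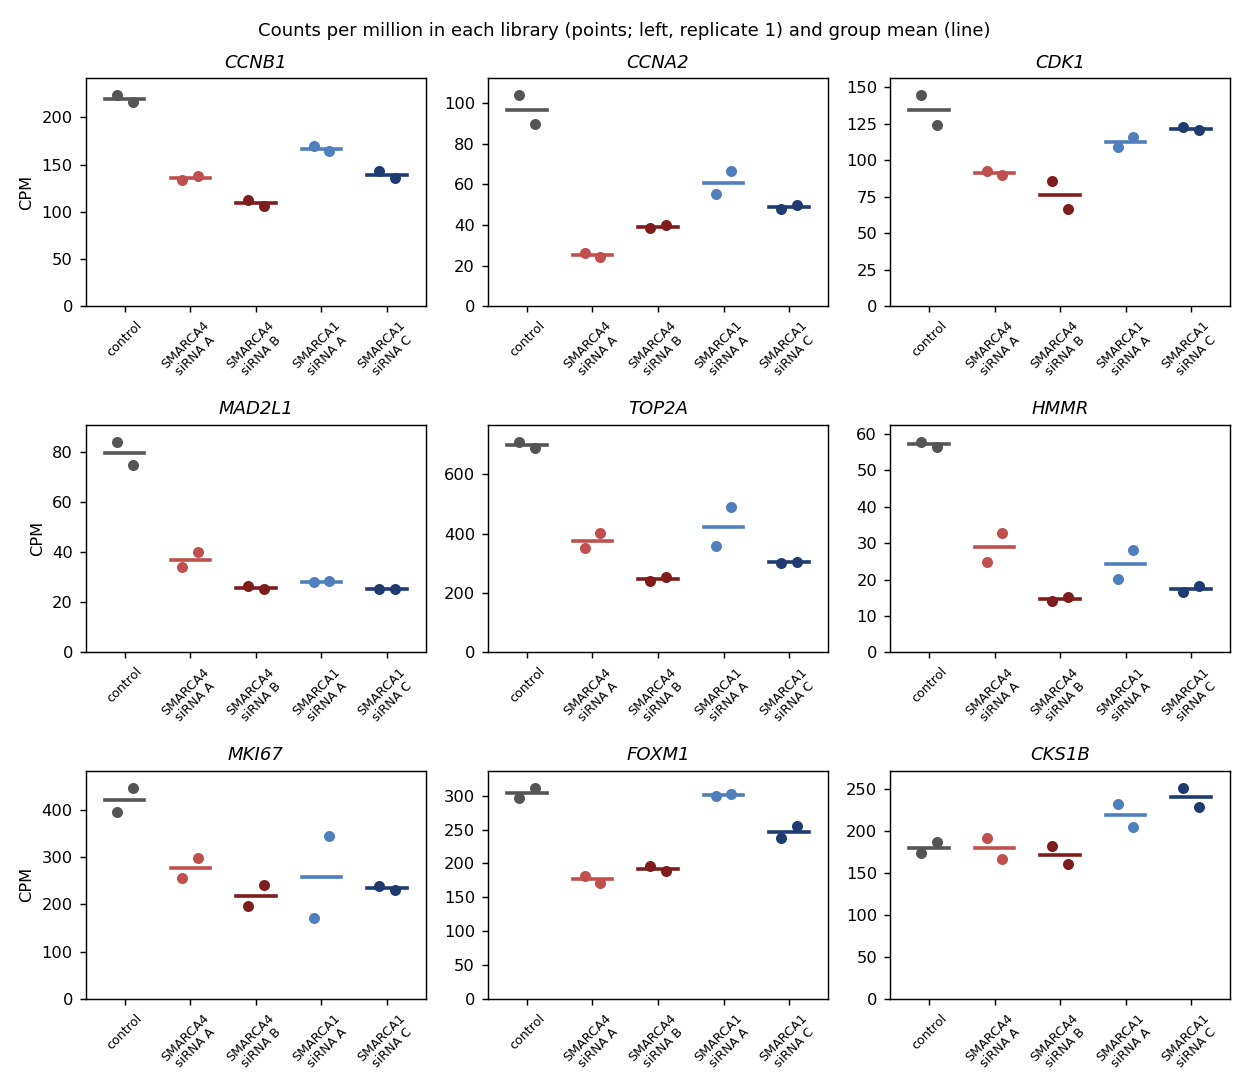
CPM (y axes, from 0) of 9 genes in each library (points) with the mean of the 2 libraries of each group (lines). *CCNB1*, *CCNA2*, *MAD2L1*, *TOP2A*, *HMMR* and *MKI67* are below both controls in all 8 knockdown libraries, *FOXM1* with *SMARCA1* siRNA A is level with the controls, and *CKS1B* is above them with both *SMARCA1* siRNAs.

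Set directly against each other, the knockdowns differed for 20 of the 50 genes. In *SMARCA4* knockdown 19 were lower than in *SMARCA1* knockdown, where 19.1% of all genes were called lower, and 1, *TPX2*, was higher (16.3%). The controls cancel in this comparison, and all 8 libraries had received a targeting siRNA. The median difference over the 50 genes was -0.21, against -0.01 over all genes. Of the called genes, 9 had no overlap between the 4 *SMARCA4* and the 4 *SMARCA1* libraries, all lower in *SMARCA4* knockdown (12.3% of all genes): *CCNA2*, *CDK1*, *CKS1B*, *CKS2*, *CDCA8*, *CENPA*, *NDC80*, *KIF2C* and *FOXM1*. The call of *CENPA* was near the threshold, at -0.25 (adjusted p = 0.046 by edgeR). It was lost with DESeq2 (adjusted p = 0.085). By edgeR it was also lost without a filter (adjusted p = 0.21) and in a fit of the compared libraries alone (adjusted p = 0.071).

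The largest of these differences was that of *CCNA2*, at 32.1 ± 8.16 CPM against 54.7 ± 8.39 CPM (SD over 4 libraries, 2 for each of 2 siRNAs). Its log2 difference was -0.80 (SE 0.09, adjusted p = 0.00024) in edgeR. These SE and p rest on the spread between libraries of the same siRNA and leave out that between the 2 siRNAs of a target. *FOXM1* followed, at 185 ± 10.6 against 274 ± 33.0 CPM, with -0.56 (SE 0.07, adjusted p = 0.00037). *CKS2*, *CDCA8* and *CDK1* had -0.55 (SE 0.09, adjusted p = 0.0013), -0.52 (SE 0.08, adjusted p = 0.0013) and -0.49 (SE 0.10, adjusted p = 0.0039). *TPX2* went the other way, at 0.25 (SE 0.07, adjusted p = 0.025), a call lost without either *SMARCA1* siRNA C library, either *SMARCA4* siRNA B library or *SMARCA4* siRNA A replicate 2 (adjusted p from 0.060 to 0.095).

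By role, of the cyclins and CDK1 regulators 6 of 8 were lower in *SMARCA4* than in *SMARCA1* knockdown (median -0.38), and of the kinases and passenger genes 4 of 7, beside 2 of 8 checkpoint genes, 2 of 5 kinetochore genes, 2 of 6 kinesins, 2 of 7 condensin and chromosome genes and 1 of the 2 regulators of entry and transcription, where 19.1% of all genes were called lower. Of the 7 spindle, midzone and cytokinesis genes edgeR called 0 and DESeq2 0, with 0 at an unadjusted p below 0.05 by either tool. Summed CPM of the cyclins and CDK1 regulators was between 57.2% and 70.5% of the control mean in the *SMARCA4* libraries and between 82.8% and 90.2% in the *SMARCA1* libraries, without overlap. For the 5 kinetochore genes the ranges overlapped. Whether the groups of roles differ from each other was not tested.

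The count depends on single libraries. That over all genes moved with the library left out as well, and its range is given further below. Without *SMARCA1* siRNA A replicate 2, 19 of the 50 genes were lower and 7 higher in *SMARCA4* than in *SMARCA1* knockdown. *MKI67*, with a difference of -0.0027 (adjusted p = 0.99) over all libraries, then had 0.30 (adjusted p = 0.031), and *KIF11*, with 0.34 (adjusted p = 0.064) over all libraries, had 0.53 (adjusted p = 0.00033). The other genes called higher there were *TPX2*, *TTK*, *CENPE*, *ECT2* and *CDCA2*. Among the lower genes, *NCAPD2* went from -0.24 (adjusted p = 0.043) to -0.17 (adjusted p = 0.053) and *NCAPG* from -0.25 (adjusted p = 0.042) to -0.16 (adjusted p = 0.051), and *CCNB2* and *UBE2C* gained a call. Leaving out other libraries in turn gave between 9 (without *SMARCA4* siRNA B replicate 2) and 21 lower genes. Without *SMARCA4* siRNA A replicate 1, 2 genes were higher. The number of lower genes was 10 and 11 without *SMARCA1* siRNA C replicate 2 and replicate 1, and 12 without *SMARCA4* siRNA A replicate 1, *SMARCA4* siRNA B replicate 1 or either control.

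**Figure D5:**
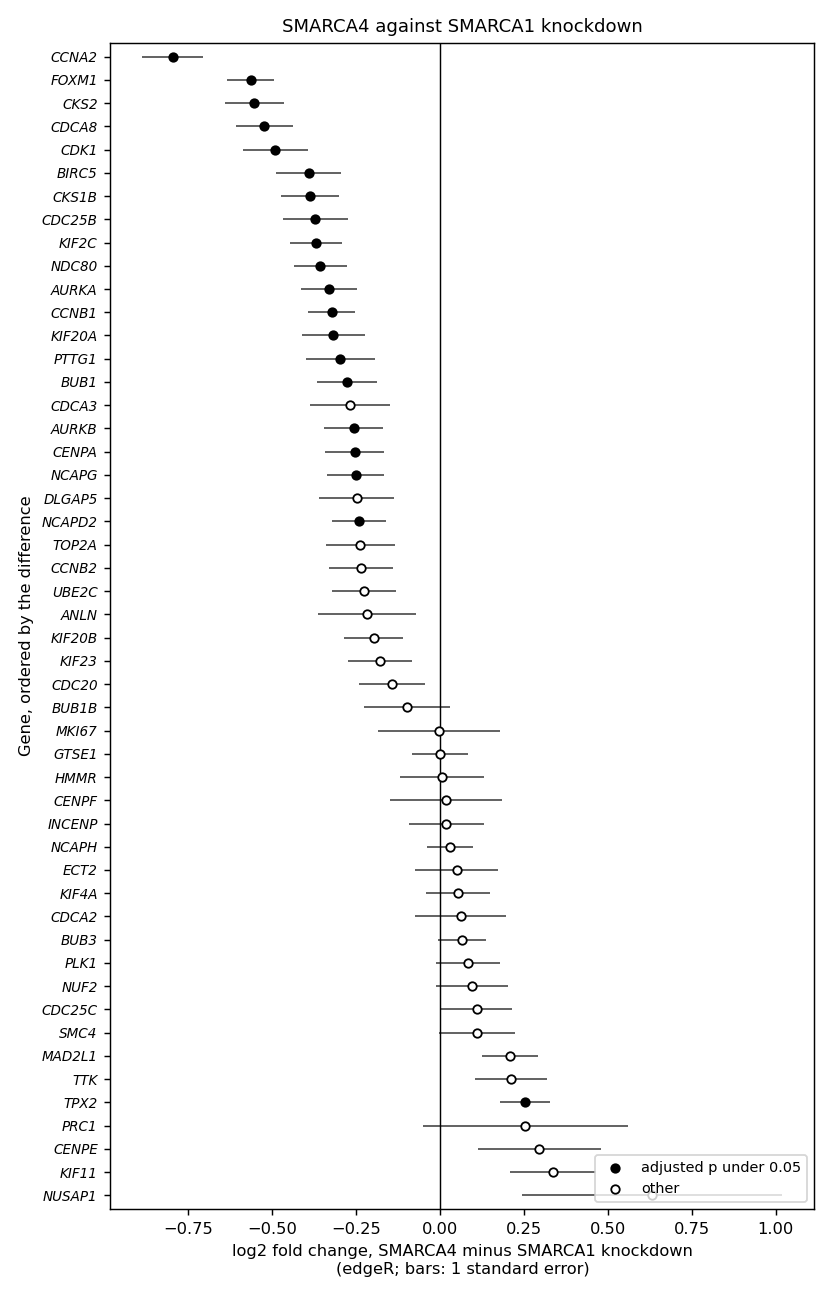
Log2 difference between *SMARCA4* and *SMARCA1* knockdown (x axis, bars 1 standard error, edgeR) for each of the 50 genes, ordered by size, filled where the adjusted p is below 0.05. *CCNA2* is furthest to the left at -0.80, 19 filled points lie left of 0 and 1, *TPX2*, lies right of it, and the wide bars of *NUSAP1* and *PRC1* belong to the genes with the fewest counts.

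The siRNAs were also taken one at a time. Against the controls, 35 genes were lower with *SMARCA4* siRNA A (15.8% of all genes), 47 with *SMARCA4* siRNA B (21.9%), 33 with *SMARCA1* siRNA A (16.3%) and 41 with *SMARCA1* siRNA C (21.5%). With all 4 siRNAs 25 genes were lower, against 6.14% of all genes. They include *CCNB1*, *CCNB2*, *CCNA2*, *PLK1*, *MAD2L1*, *CDC20*, *CENPA*, *KIF11*, *HMMR* and *TOP2A*. The counts of the A siRNAs moved when single libraries were left out, that of *SMARCA4* to 21 without either control and to 15 without *SMARCA4* siRNA A replicate 1, and that of *SMARCA1* to 10 and 13 without control replicate 1 and replicate 2 and to 18 in a fit of the compared libraries alone.

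The 2 siRNAs of *SMARCA4* differed from each other. With siRNA B 47 of the 50 genes were at a lower fitted level than with siRNA A, and 14 of them passed the test, where 3.04% of all genes did. The largest differences were those of *HMMR*, at -0.98 (SE 0.18, adjusted p = 0.017), *NCAPD2*, at -0.80 (SE 0.12, adjusted p = 0.0093), and *NUF2*, at -0.76 (SE 0.15, adjusted p = 0.022). *CCNA2* alone was called in the other direction (3.17% of all genes), higher with siRNA B, at 0.64 (SE 0.13, adjusted p = 0.023). *SMARCA4* itself was lower with siRNA B, at -0.60 (SE 0.15, adjusted p = 0.048), and the interferon-stimulated genes had a median of 0.70 in this comparison with 1 of 20 called higher, and the part of either was not tested. The 14 genes became 24 with DESeq2 and 2 in a fit of these libraries alone. Without single libraries there were between 0 (without *SMARCA4* siRNA A replicate 2 or siRNA B replicate 2) and 32 (without *SMARCA1* siRNA A replicate 2), with 31 without *SMARCA1* siRNA A replicate 1, 22 without *SMARCA4* siRNA A replicate 1, 1 without *SMARCA4* siRNA B replicate 1, and 2 without either *SMARCA1* siRNA C library or either control.

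Between the siRNAs of *SMARCA1*, 43 of the 50 genes were at a lower fitted level with siRNA C than with siRNA A (median -0.30), but edgeR called none, with 21 at an unadjusted p below 0.05 and 3 called by DESeq2. Over all genes edgeR called 0% lower and 0.0118% higher, and 2898 of 16899 were at an unadjusted p below 0.05 in either direction. Shares over all genes were not counted for DESeq2 or without single libraries, here or between the *SMARCA4* siRNAs. *SMARCA1* itself had 0.22 (SE 0.26, adjusted p = 0.71), and the interferon-stimulated genes had a median of 0.89. Of the 50 genes, 6 were lower with siRNA C without *SMARCA1* siRNA A replicate 2, 2 without its replicate 1, and 3 without either *SMARCA4* siRNA A library. Single genes had up to 1.01 on the log2 scale between the replicates of siRNA A (*MKI67*), with a median of 0.22 over the 50 genes, against 0.05 between those of siRNA C.

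Other genes of the pathway, from lists of 128 genes of which 126 were tested, were counted the same way. In *SMARCA4* knockdown 71 were called lower and 11 higher (median -0.43), and in *SMARCA1* knockdown 66 lower and 9 higher (median -0.35). Over all genes 22.3% were called lower and 22.8% higher in *SMARCA4* knockdown, and 23% lower and 23.8% higher in *SMARCA1* knockdown. Among 28 further kinetochore and centromere genes tested, 19 and 18 were lower. *SKA2*, of the complex that couples kinetochores to microtubules, fell, at -0.94 (SE 0.11, adjusted p = 0.00010) and -0.84 (SE 0.11, adjusted p = 0.00024), and *SPC24* and *ZWINT*, also kinetochore subunits, at -0.95 and -0.77 in *SMARCA4* and at -0.63 and -0.61 in *SMARCA1* knockdown.

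Among 9 further mitotic kinesins, 5 and 6 were lower, against 22.3% and 23% of all genes. *KIF14* and *KIF15* fell in both knockdowns, with -1.46 and -0.81 in *SMARCA4* and -1.22 and -0.72 in *SMARCA1* knockdown. *KIF22*, a chromosome arm motor, rose in *SMARCA4* knockdown, at 0.67 (SE 0.11, adjusted p = 0.00082), and fell in *SMARCA1* knockdown, at -0.34 (SE 0.10, adjusted p = 0.023). Of 15 condensin and cohesion genes 8 and 6 were lower, beside the same shares of all genes. *SGO1* and *SGO2*, the shugoshins that protect cohesion, had -1.03 and -0.52 in *SMARCA4* and -0.63 and -1.06 in *SMARCA1* knockdown, all called.

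Of 30 spindle, centrosome and cytokinesis genes, 18 and 19 were lower, against 22.3% and 23% of all genes. *RACGAP1*, the partner of the KIF23 protein in centralspindlin, fell, at -0.95 (SE 0.09, adjusted p = 3.2e-05) and at -1.66 (SE 0.09, adjusted p = 2.1e-06), and the direct difference was 0.71 (SE 0.07, adjusted p = 0.00016). *PBK*, a mitotic kinase, fell more in *SMARCA4* knockdown, at -1.89 and -1.17, with a direct difference of -0.72 (SE 0.10, adjusted p = 0.00070). *CEP55*, needed for the final cut between daughter cells, fell, at -1.23 and -0.996.

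Of 17 subunit and regulator genes of the anaphase-promoting complex, 9 and 8 were lower and 2 were higher in each. Over all genes 22.3% and 23% were lower and 22.8% and 23.8% higher. *CDC23*, a core subunit, had -1.09 (SE 0.10, adjusted p = 4.3e-05) in *SMARCA1* knockdown and -0.03 (SE 0.10, adjusted p = 0.86) in *SMARCA4* knockdown, and the direct difference was 1.06 (SE 0.08, adjusted p = 4.2e-05). *ANAPC5* and *ANAPC16* fell in both, at -0.64 and -0.75 in *SMARCA4* and at -0.54 and -0.47 in *SMARCA1* knockdown. Among 7 genes that control entry through CDK1, 2 and 3 were lower, where 22.3% and 23% of all genes were. *CDC25A* fell in both, at -0.56 (SE 0.08, adjusted p = 0.00040) in *SMARCA4* and -0.93 (SE 0.08, adjusted p = 4.0e-05) in *SMARCA1* knockdown by edgeR. *MASTL*, the kinase that restrains the phosphatase opposing CDK1, rose, at 1.34 (SE 0.16, adjusted p = 0.00015) and 0.76 (SE 0.16, adjusted p = 0.0032), and *ARPP19*, its substrate in that pathway, fell, at -1.31 (SE 0.17, adjusted p = 0.00026) and -0.86 (SE 0.18, adjusted p = 0.0031).

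Of 20 transcription regulators of mitotic genes, 10 were lower and 3 higher in *SMARCA4* knockdown, and 6 lower and 3 higher in *SMARCA1* knockdown, beside the shares of all genes of 22.3% lower and 22.8% higher in the first and 23% lower and 23.8% higher in the second. *MYBL2*, which encodes B-MYB, was at 207 and 221 CPM in the controls, 118 and 108 CPM with *SMARCA4* siRNA A, 106 and 102 CPM with *SMARCA4* siRNA B, 239 and 214 CPM with *SMARCA1* siRNA A and 147 and 151 CPM with *SMARCA1* siRNA C. It fell in *SMARCA4* knockdown, at -0.98 (SE 0.09, adjusted p = 3.0e-05) and had -0.22 (SE 0.09, adjusted p = 0.071) in *SMARCA1* knockdown, with a direct difference of -0.76 (SE 0.08, adjusted p = 0.00014). *CDKN1A* encodes p21, the CDK inhibitor whose rise is known to repress genes of this class, and was at 189 and 116 CPM with *SMARCA4* siRNA A and 122 and 75.9 CPM with siRNA B, 255 and 179.6 CPM with *SMARCA1* siRNA A and 254 and 265 CPM with siRNA C, against 71.4 and 68.3 CPM in the controls. It rose in both, at 0.81 (SE 0.24, adjusted p = 0.018) and 1.77 (SE 0.25, adjusted p = 0.00043), and the direct difference was -0.95 (SE 0.19, adjusted p = 0.0039).

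For comparison with an earlier cell cycle phase, 37 DNA replication genes were counted the same way. In *SMARCA4* knockdown 30 were lower (median -0.70), against 22.3% of all genes. In *SMARCA1* knockdown 20 were lower and 1 higher (median -0.32), against 23% and 23.8% of all genes. Directly, 24 were lower and 1 higher in *SMARCA4* than in *SMARCA1* knockdown (median -0.36), beside 19 and 1 of the 50 mitosis genes (median -0.21). Over all genes 19.1% were lower and 16.3% higher. Whether the lists differ was not tested.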

How the data were processed

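Total RNA of VCaP cells was enriched for polyadenylated RNA and made into strand-specific paired-end libraries (NEB Ultra II Directional kit). Per the submitters' processing notes, reads were aligned with HISAT2 2.1.0 to hg38 and counted per gene with featureCounts 1.5.2, and the release of the GENCODE annotation used for counting is not given in the sources used here. Each library came as 1 deposited file of raw counts per gene, not normalized or pooled by the authors, with the summed exon length of each gene.

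From these counts, 16899 of 59386 genes were kept by filterByExpr (minimum count 10, minimum total 15) and fitted over all 10 libraries as 5 groups with TMM scaling in edgeR 4.0.16 (R 4.3.3, limma 3.58.1). Knockdown of a gene is the mean of its siRNAs, tested by quasi-likelihood contrasts with Benjamini-Hochberg adjustment over all genes and a threshold of 0.05. The spread in these tests is that between libraries of the same group, so differences between the 2 siRNAs of a target do not widen it. Standard errors were taken as the absolute log2 fold change over the root of the F statistic. Ratios to the control mean for the plots used CPM + 0.5, and RPKM used the deposited lengths. A count of 3 equals between 0.0865 and 0.126 CPM. On simulated counts of 16400 genes for *SMARCA4* knockdown against control, 98% of genes changed by 1 and 100% of those changed by 1.5 on the log2 scale were recovered, with 6 false calls. The simulation gave every gene the same dispersion, changed only genes above a minimum level and gave both siRNAs the same effect. Smaller changes and replicate pairs of unequal spread were not simulated, so these rates check the code and do not describe performance on these libraries. Intervals of shares are exact Clopper-Pearson intervals. Python 3.11.15, pandas 2.3.3 and scipy 1.17.1 were used for the tables.

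The 50 genes, the pathway lists and the marker lists were chosen with earlier results of these data known. Values in every library are given for the 2 genes of each group of roles with the lowest p in either knockdown, for *CCNB1*, *CDK1*, *PLK1*, *MKI67* and *FOXM1*, and for genes called higher or among the 5 largest called differences between the knockdowns. The other genes are given by fold changes. At most 3 genes are named from each pathway list, taken from those with the lowest p in either knockdown, so they are not typical of their lists. Alternatives were DESeq2 1.42.0, its size factors, upper quartile scaling, library totals, scaling without the interferon-stimulated genes, no filter or a CPM of at least 1, a minimum fold of 1.2, a replicate block, fits of the compared libraries alone, and each library left out in turn.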

Additional observations from a re-analysis of the deposited data

Results flagged for a closer look

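In 10 of 100 groups of 4 libraries (the 50 genes in either knockdown) 1 library stood apart from the other 3. Chance gives about 1 in 20 only for 4 independent libraries of a single kind. Each group here mixes 2 siRNAs and the 50 genes were read from the same libraries, so the 10 cannot be set against that rate. A rate over all genes was not counted. *SMARCA1* siRNA A replicate 2 was the library in 7 of the 10 groups, each time as the highest. Against the range of the other *SMARCA1* knockdown libraries, the checkpoint kinases were at 56.0 CPM against 34.9 to 37.4 CPM for *BUB1B* and 51.0 CPM against 36.8 to 38.9 CPM for *TTK*. The kinetochore genes *CENPE* and *CENPF* were at 44.8 CPM against 27.3 to 28.4 CPM and 127 CPM against 73.7 to 75.1 CPM, and the passenger scaffold *INCENP* was at 81.3 CPM against 56.9 to 60.4 CPM. The condensin genes *SMC4* and *NCAPG* were at 371 CPM against 272 to 276 CPM and 96.4 CPM against 74.4 to 77.7 CPM. *ECT2* was low in replicate 1 of the same siRNA, at 109 CPM against 163 to 171 CPM. Among the *SMARCA4* knockdown libraries, *KIF2C* was low in siRNA B replicate 2, at 48.6 CPM against 55.5 to 56.0 CPM, and *CDCA3* was high in siRNA A replicate 2, at 28.7 CPM against 18.0 to 19.8 CPM. All these values except those of *KIF2C* and *CDCA3* lie in the siRNA group whose replicates were furthest apart.

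The siRNAs of *SMARCA4* differed from each other for 15 of the 50 genes by edgeR's test of siRNA B against siRNA A (adjusted p below 0.05, n = 2 libraries each). Of all genes tested, 3.04% were called lower and 3.17% higher with siRNA B. *CCNA2* was higher with siRNA B, at a log2 difference of 0.64. The other 14 were lower with siRNA B, a number that depended on single libraries and was 2 in a fit of the compared libraries alone. Among the kinases, passenger and checkpoint genes the log2 differences were -0.52 for *AURKA*, -0.52 for *TPX2*, -0.66 for *BIRC5*, -0.51 for *CDCA8*, -0.52 for *MAD2L1*, -0.56 for *UBE2C* and -0.62 for *PTTG1*. Among the kinetochore, kinesin, spindle and chromosome genes they were -0.76 for *NUF2*, -0.64 for *KIF23*, -0.61 for *KIF4A*, -0.98 for *HMMR*, -0.53 for *GTSE1*, -0.80 for *NCAPD2* and -0.61 for *TOP2A*. Replicate 1 of siRNA A was below replicate 2 for 43 of the 50 genes, and the same was not counted over all genes.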

How the results depend on the processing

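In *SMARCA4* knockdown the number of lower genes stayed between 39 and 47 under every alternative, and in *SMARCA1* knockdown between 32 and 42, with median log2 fold changes between -0.83 and -0.71 and between -0.71 and -0.58. With single libraries left out, genes higher in *SMARCA1* knockdown numbered 0 to 1, genes lower in *SMARCA4* than in *SMARCA1* knockdown 9 to 21 and genes higher 0 to 7. The same ranges were 15 to 40 for *SMARCA4* siRNA A, 10 to 36 for *SMARCA1* siRNA A, 0 to 32 for *SMARCA4* siRNA B below siRNA A and 0 to 6 for *SMARCA1* siRNA C below siRNA A. Over all genes, 1986 to 4518 were lower in *SMARCA4* knockdown, 1935 to 4602 in *SMARCA1* knockdown and 1942 to 3991 in the direct comparison. Where a group was left with 1 library, it was assumed to vary like the others. *MKI67* between the knockdowns ran from -0.20 without *SMARCA1* siRNA A replicate 1 to 0.30 without replicate 2, and was -0.0027 over all libraries, so that its sign turned. DESeq2 gave 2 genes higher in the direct comparison, 24 lower with *SMARCA4* siRNA B than A and 3 lower with *SMARCA1* siRNA C than A. Upper quartile scaling and library totals also gave 2 higher genes in the direct comparison. Without a filter these 3 counts were 3, 25 and 7. With a minimum fold of 1.2, genes higher in *SMARCA1* knockdown numbered 0, genes lower and higher in the direct comparison 5 and 0 (1540 lower over all genes), genes lower with *SMARCA1* siRNA A 20, and genes lower with *SMARCA4* siRNA B than A 2. In fits of the compared libraries alone the last 2 were 18 and 2. The cause of these shifts was not tested, beyond the smaller number of libraries or the stricter threshold that some settings impose. Among values of single genes under the alternatives, 1395 kept their side of the threshold, 92 lost the call and 12 gained one. In 1 the sign turned with a call in at least 1 of the fits compared. A change of sign without a call in either fit is counted among the 1395.

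The labels number the replicates 1 and 2 in each group without saying that a number marks a shared day or culture. Deviations of same-numbered libraries from their group means correlated over 0.1 in 3 of the 10 pairs of groups (0.17, 0.44 and 0.56, among *SMARCA1* siRNA A and the *SMARCA4* siRNAs) and between -0.21 and 0.07 in the other 7, over 12688 genes. With no such label and not every pair over 0.1, the pairing was not used. With the replicate block, 47 genes were lower in *SMARCA4* knockdown, 41 in *SMARCA1* knockdown and 18 in the direct comparison, where 2 were higher, with *KIF11* called at 0.35 (adjusted p = 0.042), and 21 were lower with *SMARCA4* siRNA B than A.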
